A study of Homo sapiens with 9 samples.

Results

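The transcripts described here encode the cereblon ubiquitin ligase and proteins that it destroys when a drug is bound to it. They were chosen by name, as 6 genes of the ligase and its regulator (CRBN, DDB1, CUL4A, CUL4B, RBX1 and COPS5) and 4 genes of known drug-induced substrates (GSPT1, ZFP91, CSNK1A1 and IKZF1). Of these 10 genes, 9 had a row of their own among the 13410 genes of the authors' deposited table, and ZFP91 is not analysed here. The cells were MV4-11, an established human line of acute myelomonocytic leukaemia, kept for 18 h in the vehicle DMSO, in 100 nM JB170 or in 1000 nM alisertib, with 3 libraries in each group. JB170 is a degrader of Aurora A that joins alisertib, an inhibitor of that kinase, to a ligand of cereblon. Whether the 3 libraries of a group were separate cultures is not in the labels, and the p-values therefore rest on a spread between libraries that may be technical.

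Cereblon is the substrate receptor of a ligase built on the scaffold protein CUL4A or CUL4B. DDB1 joins the receptor to the scaffold, and RBX1 brings in the enzyme that carries ubiquitin. Thalidomide and related compounds fill a pocket of cereblon and create a surface to which other proteins then bind. Proteins that are ubiquitinated only in the presence of such a compound are called neosubstrates, and a degrader such as JB170 uses the same pocket to bring a chosen target to the ligase. The substrates themselves are lost as proteins, which these data do not measure, so the values below concern the messenger RNA alone.

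The authors' deposited table holds 4 comparisons with DMSO, headed JB170, A1000, A100 and MK. A1000 was read as alisertib at 1000 nM from the dose in the labels, while no group of the labels matches A100 or MK, which keep their own headings here. All 4 comparisons share the DMSO libraries, so they are not independent of each other. Changes are given on the log2 scale as treated minus DMSO, a direction worked out from the values and stated by no header; were a column to run the other way, its signs would turn and its calls would stay. Each 95% interval was computed from the authors' change and p-value and is approximate. A gene is said to have risen or fallen where the authors' adjusted p was under 0.05. The share of all genes called in this way in the authors' deposited table was 0.0298% under JB170 (0.0224% higher and 0.00746% lower), 5.92% under alisertib, 1.3% in the column A100 and 0.47% in the column MK. In bulk RNA, fewer cells of a type and less RNA per cell cannot be told apart. Single libraries are not analysed here, which leaves the depth unknown, and each comparison is given by its change and interval. JB170 and alisertib were used at different doses, so their values stand side by side without a comparison of the compounds.

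As a check of the cells, 10 of 11 markers of myelomonocytic leukaemia had a row in the authors' deposited table, with mean log2 CPM (counts scaled to the size of the library) from 1.41 for HOXA9 to 9.88 for the receptor kinase FLT3. The header does not name the libraries over which this mean was taken. HOXA10 had no row among the genes analysed. Of 13 markers of lymphoid, erythroid, epithelial and fibroblast cells 4 had a row, at mean log2 CPM of 0.28 to 2.80, the highest being the keratin KRT18. AURKA, the gene of the targeted kinase, stood at 0.04 under JB170 (95% interval -0.13 to 0.21) and rose by 0.49 under alisertib (0.32 to 0.65, adjusted p = 1.59e-06) per the authors' deposited table. The columns A100 and MK of the authors' deposited table gave AURKA at 0.29 (adjusted p = 0.0592) and 0.48 (adjusted p = 0.0598).

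No transcript of the ligase or its substrates passed the authors' test in any comparison. Over the 36 pairs of a gene and a comparison 0 were called, the smallest adjusted p in the authors' deposited table was 0.126, and no change reached 0.5 in size. Few genes were called at all: 0.0298% of all genes under JB170, 5.92% under alisertib, 1.3% in A100 and 0.47% in MK. A count of 0 among 9 genes is thus no trait particular to them. An unadjusted p under 0.05 was found in 4 pairs, 3 in the column A100 (CRBN, DDB1 and CSNK1A1) and 1 in the column MK (IKZF1). Over all genes the authors' deposited table had unadjusted p under 0.05 for 11.6% in A100, 8.65% in MK, 17.6% under alisertib and 3.02% under JB170. Under JB170 and under alisertib none of the 9 genes was below that value. At a looser adjusted p under 0.1, reached by 0.0298% of genes under JB170, 8.19% under alisertib, 2.15% in A100 and 0.768% in MK, the count for the 9 genes was likewise 0. The median change of the 9 genes was 0.04 under JB170, 0.09 under alisertib, 0.12 in A100 and 0.00 in MK, from the authors' deposited table. The medians over all genes of that table lay within 0.01 of 0 in all 4. The median size of change, whatever its sign, was 0.06 for the 9 genes and 0.10 for all genes under JB170, and 0.11 and 0.17 under alisertib, from the authors' deposited table. It was 0.17 and 0.14 in A100 and 0.07 and 0.16 in MK, so the 9 genes were the more changed set in A100 alone, which was not tested.

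**Figure D1:**
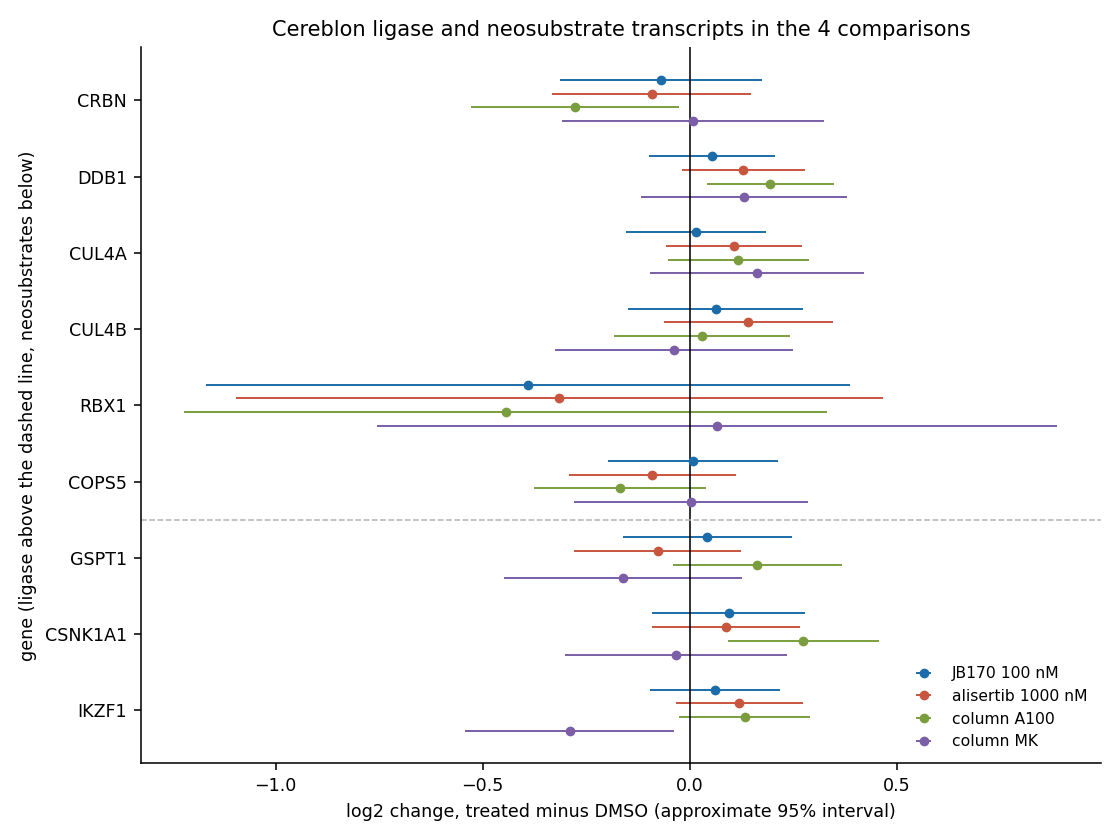
Log2 change (treated minus DMSO) on the x axis for the 9 measured genes on the y axis, with 1 point per comparison and bars for the approximate 95% interval, from the authors' changes and p-values. All points lie between -0.44 and 0.27, most intervals span 0, and those of RBX1 are the widest.

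The genes differed in mean log2 CPM, which bears on how precisely each change was measured. To set their levels beside each other, the authors' mean CPM was divided by the length of the merged exons in GENCODE 29. The level is given as log2 CPM per kb, an approximation since the exons counted by the authors are not given. The order by level per kb is not the order of precision. On that scale of level DDB1 was highest at 6.38, followed by COPS5 at 5.10, IKZF1 at 5.05 and CUL4A at 4.59. CSNK1A1 at 3.89, CRBN at 3.68, CUL4B at 3.51 and GSPT1 at 3.34 formed a lower group, and RBX1 was last at 1.60. No spread between libraries is known for these levels, so neighbours such as COPS5 and IKZF1, or CRBN and CUL4B, cannot be ranked with an error. The receptor was thus listed below its adaptor DDB1 on the log2 CPM per kb scale, and among the scaffolds CUL4A was listed above CUL4B.

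CRBN encodes the receptor itself (ENSG00000113851, GRCh38, minus strand of chromosome 3, 3144628 to 3179727). Its change was -0.07 under JB170 (95% interval -0.31 to 0.18, p = 0.594) per the authors' deposited table, or 0.954 times the DMSO level. Under alisertib the authors' deposited table gave -0.09 (-0.33 to 0.15, p = 0.473). Neither comparison showed a difference larger than the error, and the JB170 interval leaves room for levels from 0.805 to 1.13 times that in DMSO. In the column A100 of the authors' deposited table CRBN stood at -0.28 (-0.53 to -0.03, p = 0.0303, adjusted p = 0.392). In the column MK it was 0.01 (-0.31 to 0.33) per the authors' deposited table. The lowest of the 4 values was thus that of A100, and it did not pass once adjusted.

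DDB1 encodes the adaptor shared by all CUL4 ligases (ENSG00000167986, chromosome 11 from 61299451 to 61342596, minus strand, GRCh38). It had the smallest implied errors of the 9 genes in every comparison. The authors' deposited table gave 0.05 under JB170 (-0.10 to 0.21, p = 0.498) and 0.13 under alisertib (-0.02 to 0.28, p = 0.0857). In the column A100 DDB1 stood at 0.20 (0.04 to 0.35, p = 0.0127, adjusted p = 0.264), and in MK at 0.13 (-0.12 to 0.38), both from the authors' deposited table. With the directions as read here, all 4 values of DDB1 lay above 0 and none was called.

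The scaffolds CUL4A (ENSG00000139842, chromosome 13 from 113208193 to 113267108, plus strand, GRCh38) and CUL4B (ENSG00000158290, chromosome X from 120524609 to 120575794, minus strand, GRCh38) are close paralogs that can each carry the ligase. CUL4A stood at 0.02 under JB170 (-0.15 to 0.19), 0.11 under alisertib (-0.06 to 0.27), 0.12 in A100 (-0.05 to 0.29) and 0.16 in MK (-0.09 to 0.42) per the authors' deposited table. CUL4B stood at 0.06 under JB170 (-0.15 to 0.28), 0.14 under alisertib (-0.06 to 0.35), 0.03 in A100 (-0.18 to 0.24) and -0.04 in MK (-0.33 to 0.25) per the authors' deposited table. Every interval of both scaffolds held 0. How reads shared by the 2 paralogs were counted is not known, so their separate values are uncertain to that extent. With the directions as read here, CUL4A and DDB1 were the 2 genes of the 9 whose value had the same sign in all 4 comparisons, which share their controls. With JB170 read the other way, neither would keep the same sign throughout.

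RBX1 encodes the RING subunit (ENSG00000100387, chromosome 22 from 40951347 to 40973309, plus strand, GRCh38), which serves most cullin ligases. It was the least abundant of the genes, at a mean log2 CPM of 1.85 in the authors' deposited table, and its changes were the least certain. They were -0.39 under JB170 (-1.17 to 0.39, p = 0.330), -0.31 under alisertib (-1.10 to 0.47, p = 0.398), -0.44 in A100 (-1.22 to 0.33) and 0.07 in MK (-0.76 to 0.89) per the authors' deposited table. A change of the size measured for RBX1 under JB170 was not detectable at its abundance.

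COPS5 encodes the catalytic subunit of the COP9 signalosome (ENSG00000121022), which removes the small modifier NEDD8 from cullins and so resets the ligase. In the authors' deposited table it stood at 0.01 under JB170 (-0.20 to 0.21), -0.09 under alisertib (-0.29 to 0.11), -0.17 in A100 (-0.38 to 0.04, p = 0.113) and 0.00 in MK (-0.28 to 0.29). None of the 4 intervals excluded 0.

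**Figure D2:**
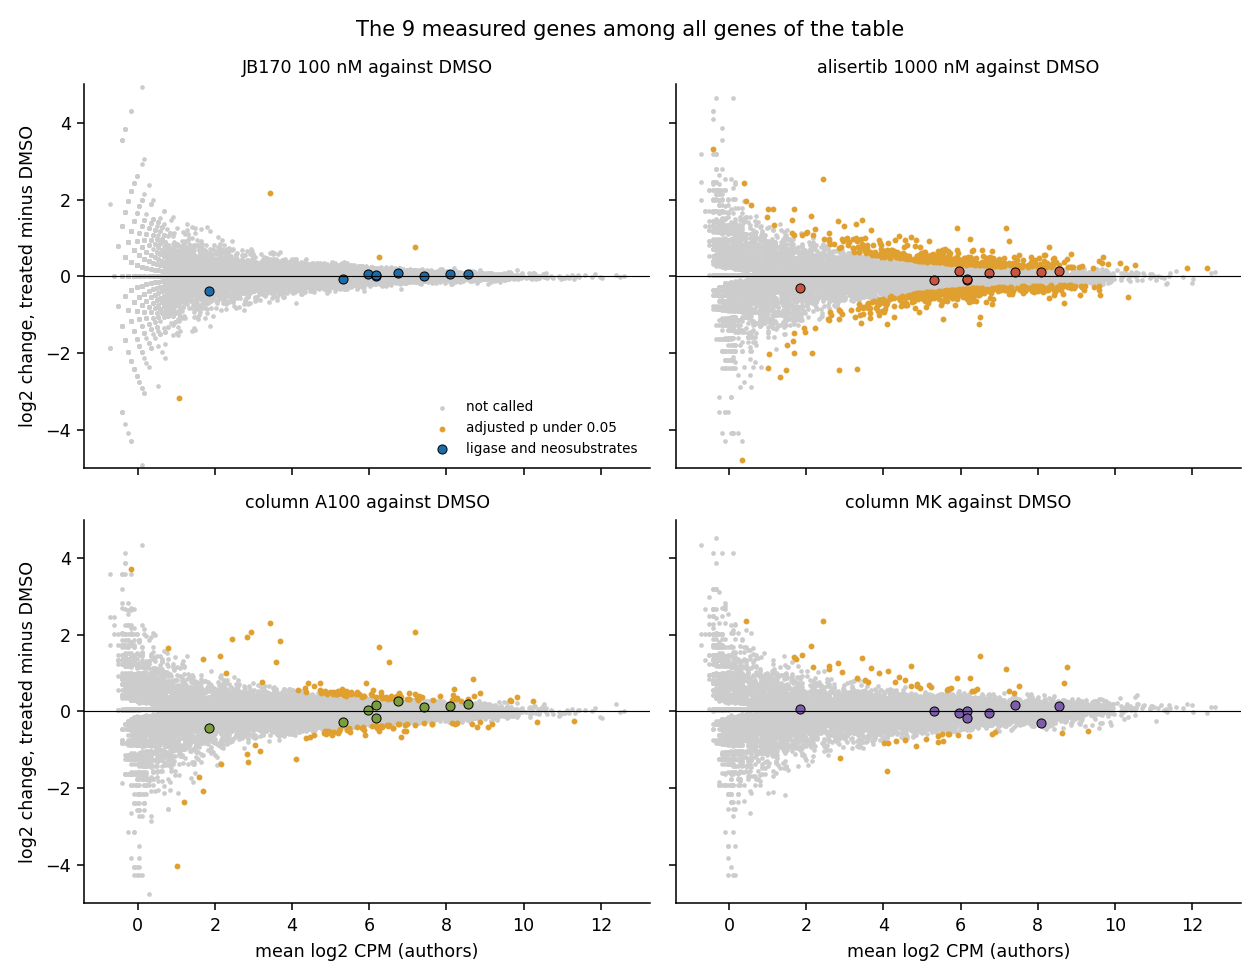
Log2 change (treated minus DMSO, y axis) against the authors' mean log2 CPM (x axis) for all 13410 genes, 1 panel per comparison, with genes at an adjusted p under 0.05 in orange, other genes in grey and the 9 genes of the ligase and its substrates outlined. Called genes number 4 under JB170, 794 under alisertib, 174 in A100 and 63 in MK, and none of the outlined genes is among them.

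Among the neosubstrates, GSPT1 encodes eRF3a (ENSG00000103342, chromosome 16 from 11868128 to 11916082, minus strand, GRCh38), the GTPase that acts with eRF1 to end translation. The authors' deposited table gave 0.04 under JB170 (-0.16 to 0.25, p = 0.686) and -0.08 under alisertib (-0.28 to 0.12, p = 0.461). It gave 0.16 in A100 (-0.04 to 0.37) and -0.16 in MK (-0.45 to 0.13). The values of GSPT1 thus lay on both sides of 0 and none passed. GSPT2, a retrogene copy whose reads can be hard to tell from those of GSPT1, stood at 0.05 under JB170 and -0.07 under alisertib in the authors' deposited table. The values of GSPT1 are uncertain to the extent that reads were shared.

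CSNK1A1 encodes casein kinase 1 alpha (ENSG00000113712, chromosome 5 from 149492197 to 149551552, minus strand, GRCh38), a kinase that marks beta-catenin for destruction and restrains p53; lenalidomide sends it to cereblon. Under JB170 it stood at 0.09 (-0.09 to 0.28, p = 0.317) and under alisertib at 0.09 (-0.09 to 0.27, p = 0.341) per the authors' deposited table. In the column A100 of the authors' deposited table CSNK1A1 stood at 0.27 (0.09 to 0.46, p = 0.00318, adjusted p = 0.126), or 1.21 times DMSO. This was the smallest p-value of the 36 pairs and still missed the adjusted threshold. In MK the value was -0.03 (-0.30 to 0.24) per the authors' deposited table.

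IKZF1 encodes Ikaros (ENSG00000185811, chromosome 7 from 50304068 to 50405101, plus strand, GRCh38), a zinc finger regulator of blood cell development and a classical target of lenalidomide. It was abundant in these cells, with a mean log2 CPM of 8.08, above 95.2% of the genes of the authors' deposited table. Its change in the authors' deposited table was 0.06 under JB170 (-0.10 to 0.22, p = 0.445), 0.12 under alisertib (-0.03 to 0.27, p = 0.125) and 0.13 in A100 (-0.03 to 0.29, p = 0.102). With the directions as read here, the column MK was the exception in sign, at -0.29 (-0.54 to -0.04, p = 0.0245, adjusted p = 0.470) per the authors' deposited table. Whether MK differs from the other columns for IKZF1 was not tested.

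The intervals give the range of changes that these data leave possible. Leaving aside RBX1, the intervals of the other 8 genes together ran from -0.31 to 0.28 under JB170, which is 0.805 to 1.21 times the DMSO level. Under alisertib they ran from -0.33 to 0.35, or 0.795 to 1.27 times. In A100 and MK the lowest bounds were -0.53 and -0.54 and the highest 0.46 and 0.42. A fall to 0.5 times the DMSO level lay outside the intervals of these 8 transcripts in all 4 comparisons. The bounds are not limits of detection: the intervals of 3 of the 8 genes in A100 and of 1 in MK excluded 0 at changes inside them.

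The wider machinery around cereblon was then examined through 13 lists that hold 137 measured genes besides the 9. Under JB170 none of the 137 was called by the authors' test, and 6 had an unadjusted p under 0.05. The shares over all genes under JB170 were 0.0298% and 3.02%, so the count of 0 is no trait particular to the 137. Under alisertib 5 rose and 10 fell, where the shares over all genes of the authors' deposited table were 3.09% higher and 2.83% lower. In A100 1 rose and 8 fell (0.761% and 0.537% over all genes), and in MK none rose and 2 fell (0.321% and 0.149%). The median change of the 137 genes lay within 0.03 of 0 in each comparison. Of the 10 calls below 0 under alisertib 5 belonged to a single list, that of stress response genes.

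The lists nearest the ligase come next. Over all genes 0.0298% were called under JB170, 5.92% under alisertib, 1.3% in A100 and 0.47% in MK. With lists this short, the counts below are no trait particular to these genes. Of 13 genes of ubiquitin-conjugating enzymes and accessory proteins, GLMN, whose product binds RBX1 and blocks it, fell by 0.31 under alisertib (adjusted p = 0.0145) and by 0.35 in A100 (adjusted p = 0.0158) per the authors' deposited table. Under JB170 GLMN stood at -0.10 (-0.28 to 0.07) in that table. Of 11 measured genes of the NEDD8 pathway 1 was called, UBE2M, the conjugating enzyme that loads NEDD8 on cullins. UBE2M fell by 0.36 under alisertib (adjusted p = 0.00429) and stood at -0.16 under JB170 (p = 0.0919) per the authors' deposited table. ARIH1, a ligase that works on cullins carrying NEDD8, stood at 0.13 under JB170 (p = 0.199) and 0.23 under alisertib (adjusted p = 0.182) per the authors' deposited table, neither called. The other 9 subunits of the COP9 signalosome had medians of -0.01 under JB170 and -0.03 under alisertib in the authors' deposited table, and none was called in any comparison.

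Receptors that compete with cereblon for DDB1 and CUL4 were measured for 21 of 23 listed genes, and none was called in any of the 4 comparisons. Their median was 0.00 under JB170 and 0.09 under alisertib in the authors' deposited table. DDB2, the receptor for ultraviolet damage and a p53 target, stood at 0.24 under JB170 (p = 0.0819) and 0.34 under alisertib (adjusted p = 0.122) per the authors' deposited table. The other cullin ligases, built on CUL1, CUL2, CUL3, CUL5, CUL7 and CUL9, gave with some of their adaptors and receptors 14 measured genes and no call. SKP1, the adaptor of the CUL1 ligases, had the smallest adjusted p among them, at 0.45 in the column MK (adjusted p = 0.0755) per the authors' deposited table.

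Of 21 further neosubstrates 16 were measured; IKZF2, IKZF3, SALL4, ZNF827 and DTWD1 are not analysed here. None was called under JB170 or under alisertib, where 0.0298% and 5.92% of all genes were. ZNF692, a zinc finger protein degraded with lenalidomide, fell by 0.62 in the column A100 (-0.84 to -0.39, adjusted p = 6.50e-05) and stood at -0.13 under JB170, -0.27 under alisertib and -0.19 in MK in the authors' deposited table. ZBTB16, a blood cell regulator, stood at 1.32 under JB170 (-0.83 to 3.46) per the authors' deposited table, where its mean log2 CPM was 0.10. TP63, a relative of p53 named after its values were seen, stood at -4.27 in the column A100 of the authors' deposited table (-7.74 to -0.80, adjusted p = 0.293), at a mean log2 CPM of 0.04. Neither was called in any comparison, and both intervals are wide. Proteins that cereblon binds without a drug gave 7 measured genes and 1 that was called: GLUL, which encodes glutamine synthetase, a cereblon substrate when glutamine is high. GLUL rose by 0.51 under alisertib (0.37 to 0.65, adjusted p = 7.89e-10) and by 0.28 in A100 (0.14 to 0.43, adjusted p = 0.0233), and stood at 0.10 under JB170 (-0.05 to 0.24) per the authors' deposited table. KCNMA1, the pore subunit of a potassium channel that binds cereblon, stood at -2.60 under JB170 (-5.08 to -0.12, p = 0.0396, adjusted p = 1) and -1.28 under alisertib (-3.36 to 0.80) per the authors' deposited table, at a mean log2 CPM of -0.03. It was the one gene of that list with an unadjusted p under 0.05 under JB170. BSG, which encodes a membrane protein that cereblon helps to fold, stood at 0.01 under JB170 and 0.12 under alisertib in that table.

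**Figure D3:**
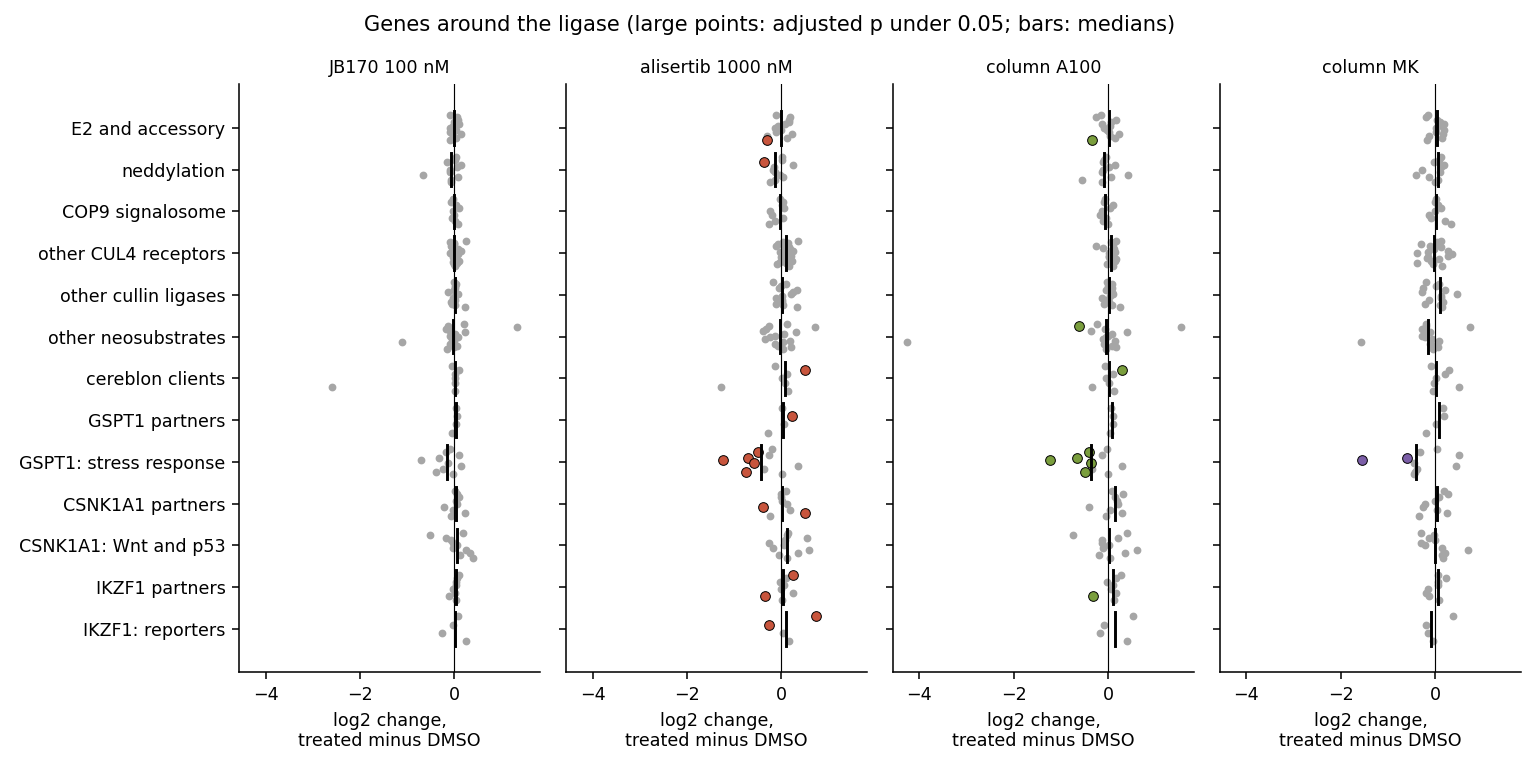
Log2 change (treated minus DMSO, x axis) of each measured gene in the 13 lists around the ligase (y axis), 1 panel per comparison, with large outlined points for an adjusted p under 0.05 and vertical bars for the list medians. The JB170 panel has no called gene, and the stress response list holds 5 of the 15 called points under alisertib and 5 of the 9 in A100; the points beyond -2 belong to TP63 and KCNMA1, both with a mean log2 CPM near 0.

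Loss of the GSPT1 protein is known to raise the integrated stress response, whose main transcription factor is ATF4. Protein was not measured, and whether GSPT1 was lost was not tested. None of the 10 listed genes of that response was called higher in any comparison. Above 0 lay 2 under JB170, 2 under alisertib, 1 in A100 and 3 in MK. PPP1R15A, named after its values were seen, was above 0 in each. It stood at 0.15 under JB170, 0.35 under alisertib (adjusted p = 0.0787), 0.29 in A100 and 0.44 in MK per the authors' deposited table. Under JB170 0 of 10 were called, 8 lay below 0 and the median was -0.16 in the authors' deposited table. An unadjusted p under 0.05 was found under JB170 for 4 of the 10, and for 3.02% of all genes. Under alisertib 5 of 10 fell and none rose (median -0.44), in A100 5 fell and none rose (median -0.36), and in MK 2 fell and none rose (median -0.41), all from the authors' deposited table. The 5 genes that fell under alisertib were ASNS, ATF4, CHAC1, DDIT4 and, named here to complete the count, TRIB3. ATF4 itself fell by 0.50 under alisertib (adjusted p = 8.68e-09) and stood at -0.19 under JB170 (p = 0.0124, adjusted p = 1) per the authors' deposited table. CHAC1, an enzyme that breaks down glutathione, had the largest fall of the list under alisertib, at -1.23 (adjusted p = 1.45e-08), and stood at -0.70 under JB170 (-1.04 to -0.36, adjusted p = 0.130) per the authors' deposited table. ASNS, asparagine synthetase, fell by 0.71 under alisertib (adjusted p = 2.02e-11) and stood at -0.33 under JB170 (adjusted p = 0.660) per the authors' deposited table. Of 4 measured partners of GSPT1, PABPC1, the poly(A)-binding protein, rose by 0.23 under alisertib (adjusted p = 0.0271) per the authors' deposited table. ETF1, which encodes eRF1, stood there at 0.03 and 0.01 under JB170 and alisertib in the authors' deposited table.

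Loss of casein kinase 1 alpha is known to raise Wnt and p53 target genes. Whether the kinase was lost as a protein was not tested here. Of 15 such genes 11 were measured, and none was called in any comparison. No unadjusted p of the 11 fell below 0.05 either. Over all genes a p that low was found for 3.02% under JB170, 17.6% under alisertib, 11.6% in A100 and 8.65% in MK. Called were 0.0298%, 5.92%, 1.3% and 0.47% of all genes, in the same order. With a list this short, both counts of 0 are no trait particular to these 11 genes. The median was 0.06 under JB170 and 0.12 under alisertib in the authors' deposited table. The p53 target BBC3, which promotes cell death, had the smallest p of the list under JB170, at 0.38 (-0.05 to 0.82, p = 0.0822), and stood at 0.12 under alisertib (-0.30 to 0.54) per the authors' deposited table. SESN1, another p53 target, stood at 0.32 under JB170 (-0.11 to 0.75) and 0.36 under alisertib (-0.07 to 0.79) per the authors' deposited table, both intervals holding 0. The Wnt targets TCF7 and NKD1 stood below 0 under JB170, at -0.52 (-1.80 to 0.76) and -0.18 (-0.87 to 0.50). Their mean log2 CPM was low, at 0.86 and 2.02, and their intervals are wide. Under alisertib TCF7 and NKD1 stood at 0.12 (-1.14 to 1.37) and 0.54 (-0.05 to 1.13) per the authors' deposited table. Of the 11 genes 6 lay above 0 and 5 below under JB170, and 8 above and 3 below under alisertib. Among 9 measured partners of the kinase, FAM83D, which anchors it at the mitotic spindle, rose by 0.50 under alisertib (adjusted p = 0.000747) and stood at 0.23 under JB170 (p = 0.0574) per the authors' deposited table. MDM4, which restrains p53 together with casein kinase 1 alpha, fell by 0.39 under alisertib (adjusted p = 0.0222) and stood at -0.23 under JB170 (p = 0.0509) per the authors' deposited table.

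In myeloma cells loss of Ikaros lowers IRF4 and MYC, and these were read here with 2 other measured genes. The Ikaros protein was not measured, and its loss was not tested. Under JB170 the authors' deposited table gave IRF4 at 0.07 (-0.38 to 0.52) and MYC at -0.03 (-0.18 to 0.12). Under alisertib IRF4, a lymphoid and myeloid transcription factor, rose by 0.74 (adjusted p = 0.0101) per the authors' deposited table, while MYC fell by 0.26 (adjusted p = 0.0130). The 2 genes thus moved in opposite directions under alisertib. IRF5, another interferon regulatory factor of the list, stood at -0.27 under JB170 (p = 0.0136, adjusted p = 1) and 0.03 under alisertib per the authors' deposited table. Ikaros works with the NuRD complex, for which 8 genes of it and of SIN3A were measured. Of these, MBD3 fell by 0.36 under alisertib (adjusted p = 0.000486) and by 0.32 in A100 (adjusted p = 0.0140), and the chromatin remodeller CHD4 rose by 0.25 under alisertib (adjusted p = 0.0241) per the authors' deposited table. Under JB170 MBD3 stood at -0.12 and CHD4 at 0.09 in that table, neither past the threshold.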

How the data were processed

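Poly(A) RNA of 9 libraries was sequenced in directional libraries, per the labels' protocols. The submitters' processing notes name FastQC, TopHat2 2.1.1, Bowtie2 2.3.2 and the build hg19; how reads were counted, normalized and tested is not given in the sources used here. Per the file headers, the deposited table gives the authors' log2 fold changes, p-values and adjusted p-values for 4 comparisons with DMSO and a mean log2 CPM. After 75 repeated rows were dropped it has 13410 genes; the authors' adjustment implies 16812 tests, and the other 3402 are not analysed here. With no values per library, depth is unknown.

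The direction was inferred from genes with very few reads. A gene with no reads in DMSO can be higher but not lower in treated cells. Of 20 genes with a mean log2 CPM under 0.3 and a deposited JB170 value over 2.4, none was above 0 in A1000, A100 or MK. Of 34 genes with a JB170 value below -2.4, 5, 3 and 10 were below 0 in those columns and 29, 31 and 24 above. Signs on one side alone, as in the first set, are what genes without reads in DMSO would give, so JB170 was read as treated minus DMSO. A1000, A100 and MK were read as DMSO minus treated and multiplied by -1. The 18 genes with a mean under -0.5 were all negative as deposited in these 3 columns; that fits the same direction only if the mean leaves their treated libraries out, which was not tested. A second check compared the error implied by change and p (log2) between genes with large positive and large negative deposited values. In simulated counts this difference was above 0 for DMSO minus treated and below 0 for the reverse. The simulation took the mean log2 CPM as the level in DMSO alone. Whether the deposited mean is of that kind is not known, so the check gives a direction only under that setting. The difference was 0.40 in A1000, 0.30 in A100 and 0.23 in MK, but 0.005 in JB170. The second check thus gave no direction for JB170, whose reading rests on the first alone. No header states the direction.

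No test was fitted: the authors' adjusted p under 0.05 was taken as a call. The error behind each 95% interval is the one implied by the change and its p where the absolute z is 1 or more; for other genes it is the running median of 60 bins of similar mean log2 CPM. Exon lengths and positions came from GENCODE 29 (GRCh38). Python 3.11.15, pandas 2.3.3 and scipy 1.17.1 were used. The genes, lists and naming rule were chosen with earlier results of these data known. The rule takes at most 4 genes per list: those called, by smallest adjusted p, then those with the smallest p under JB170. Alternatives were a looser threshold, a rebuilt adjustment, unadjusted p-values, a filter on level, centring, the other JB170 direction and a running median error for every gene.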

Additional observations from a re-analysis of the deposited data

How the results depend on the processing

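No paired analysis was possible because the deposited table holds comparisons and no values per library; leaving out a replicate was not run for the same reason. The count of 0 called genes of the ligase and its substrates was the same in all 4 comparisons at an adjusted p under 0.1, with the adjustment rebuilt over the genes given here, and after genes below a mean log2 CPM of 3 were left out. At an unadjusted p under 0.05 it was 3 in A100 and 1 in MK, and 0 with JB170 and alisertib. With the opposite sign for JB170 every value of the 9 genes would turn: CRBN would stand at 0.0686, DDB1 at -0.0533, CUL4A at -0.0154, CUL4B at -0.0628, RBX1 at 0.39, COPS5 at -0.00827, GSPT1 at -0.0423, CSNK1A1 at -0.0943 and IKZF1 at -0.0622, none of them called. Centring on the median of all genes turned no sign. The 137 genes of the lists had 15 calls with alisertib, 9 in A100 and 2 in MK, and 19, 11 and 3 at an adjusted p under 0.1. Among the 9 genes RBX1, the least abundant, had the widest intervals.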

Other observations

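The row of the readthrough transcript ZFP91-CNTF, which shares exons with ZFP91 and is no measure of it, had a mean log2 CPM of 0.33 in the authors' deposited table. Its changes there were -0.55 with JB170 (95% interval -2.36 to 1.26), -1.44 with alisertib (-3.40 to 0.51), -0.75 in A100 and -1.04 in MK, none of them called.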
